A study of Mus musculus with 2 samples.

Results

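Early erythroid cells with low haemoglobin are red-cell precursors that already carry erythroid RNA but have little globin RNA. They were taken here from 2 single-cell RNA libraries of mouse alveolar bone, in which the teeth are anchored. A member had at least 1000 UMIs (unique molecular identifiers, which count RNA molecules) over mouse genes and at most 20% of them mitochondrial. It also had at least 1 UMI of Klf1, an erythroid transcription factor, and at least 2 UMIs of Car2, a carbonic anhydrase. The 4 adult haemoglobin genes Hba-a1, Hba-a2, Hbb-bs and Hbb-bt made up less than 25% of its UMIs. The platelet genes Pf4 and Ppbp together gave fewer than 5 UMIs, and C1qa, C1qb and C1qc of macrophages together gave at most 1. These values chose the members and are given below as description only. The rule took 43 of 9365 cells in library 1, a share of 0.459% (95% interval 0.332 to 0.618%), and 122 of 12444 in library 2, a share of 0.980% (0.815 to 1.17%). Together they were 165 of 21809 cells.

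The mice were C57BL/6J, 6 to 8 weeks old and 20 to 25 g. In all animals a nickel-titanium coil spring was fixed between the upper right first molar and the incisors, and it pulled at 25 g in the force group and carried no force in the control group. Bone within 1 mm of the molar's socket was taken on day 7, the bone of 6 of the 12 mice was pooled for each group, and it was digested for 60 min at 37 °C before a 10 min red-cell lysis. The labels do not say which library came from which group, so force and control cannot be compared, no test is given, and no value below describes an effect of force. Each library is 1 pool, and cells are not replicates. Intervals are exact 95% Poisson or Clopper-Pearson intervals and cover counting error only. How many erythroid cells the lysis removed was not measured, so the shares above are shares of the cells recovered.

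Red-cell precursors arise from progenitors that carry Kit, the receptor of stem cell factor, and then come to depend on erythropoietin, which signals through Epor. GATA1 replaces GATA2 on many of their genes, and KLF1 acts with it on the genes of haem, globin and the membrane skeleton. Divisions continue while haemoglobin builds up, and the ribosome-making machinery is run down before the nucleus is expelled.

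The sequences that follow are promoters, since a site for GATA factors is the textbook link between these genes. They are shown for Epor and for the enzyme with one of the largest differences along the haemoglobin axis. The last is of the gene that ranked first outside the lists by its ratio to all other cells. Those printed were all taken from the 4 of 12 promoters with a match to the motif marked below. They come from RefSeq on build GRCm38.p6 and run from 250 bases before to 50 bases after the annotated start. Each is written 5′ to 3′ on the gene's strand, and capitals mark a match to AGATAA or to its reverse complement TTATCT. Epor lies at chr9:21963527-21963826 on the minus strand, Alas2 at chrX:150547167-150547466 on the plus strand and Pklr at chr3:89135892-89136191 on the plus strand. Pklr has a second promoter in the table, at chr3:89136373-89136672, with 0 matches, which is not printed.
Epor: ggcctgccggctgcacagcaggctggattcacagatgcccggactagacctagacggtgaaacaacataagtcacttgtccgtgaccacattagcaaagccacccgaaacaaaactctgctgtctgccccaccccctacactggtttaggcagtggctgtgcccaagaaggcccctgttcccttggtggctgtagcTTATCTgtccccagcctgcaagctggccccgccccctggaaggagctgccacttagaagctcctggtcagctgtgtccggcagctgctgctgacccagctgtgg
Alas2: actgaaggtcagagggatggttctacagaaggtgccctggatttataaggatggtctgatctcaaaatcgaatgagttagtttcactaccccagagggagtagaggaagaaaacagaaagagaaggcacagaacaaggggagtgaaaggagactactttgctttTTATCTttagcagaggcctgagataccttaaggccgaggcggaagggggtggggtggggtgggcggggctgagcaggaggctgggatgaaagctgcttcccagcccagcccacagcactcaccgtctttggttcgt
Pklr: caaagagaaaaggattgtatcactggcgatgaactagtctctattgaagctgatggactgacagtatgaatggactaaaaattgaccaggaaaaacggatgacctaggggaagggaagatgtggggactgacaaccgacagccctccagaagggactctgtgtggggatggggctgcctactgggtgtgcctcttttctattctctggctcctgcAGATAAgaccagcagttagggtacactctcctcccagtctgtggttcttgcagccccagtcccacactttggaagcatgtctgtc
Of 16 erythroid genes looked up, 10 gave 12 promoters. Car1, Slc4a1, Ahsp and Ank1 were among those that gave none. AGATAA was found on either strand in 4 of the 12, those above and Cpox, and in 11.2% of 32851 promoters of the same length. CCACACCC, a form of the CACCC box, was found on either strand in 0 of the 12 and in 3.56% of all. A match is a description of these letters and not a site.

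Members were deep cells in both libraries. Their median was 12141 UMIs and 3502 genes in library 1, and 8966 UMIs and 2715 genes in library 2. The medians over all cells were 3518 and 4453.5 UMIs. The rule sets minimum UMI counts of Klf1 and Car2, which favours deep cells. Klf1 had a median of 2 UMIs in each library and reached 11 and 28 UMIs in single cells, while Car2 had medians of 20 and 26.5 UMIs and reached 232 and 333. Many members sat at the lower limit of the rule: 63 had exactly 1 UMI of Klf1 and 11 had exactly 2 of Car2. The haemoglobin share ran from 0.00540% to 23.2% in library 1, with a median of 0.137%, and from 0.0272% to 24.8% in library 2, with a median of 3.22%. No barcode was shared between the libraries among the members, against 75 among all cells.

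The label was checked against 5 erythroid genes that the rule did not use: Gata1, Epor, Ermap (an erythroid membrane protein), Rhag (a Rhesus-associated membrane protein) and Car1 (a second carbonic anhydrase). Gata1 had a UMI in 60.5% of members of library 1 and 54.9% of library 2, against 0.753% and 0.377% of B-lineage cells, which should lack it. The median depth of those B-lineage cells was 2801 and 2413 UMIs. After thinning every cell to 1000 UMIs the Gata1 shares were 16.3% and 8.20% of members against 0.377% and 0.0943% of B-lineage cells. Car1 was the most frequent of the 5 after thinning, in 65.1% and 43.4% of members against 0.188% and 0.471% of B-lineage cells. Gata1 did not set the members apart from megakaryocytes, of which 20.8% and 18.6% had it after thinning. Epor was in 9.32% and 10.3% of megakaryocytes and in 16.3% and 13.1% of members. Ermap, Rhag and Car1 were each in at most 0.833% of megakaryocytes and in at least 11.6% of members. The label held for most members but not for all: 24 had fewer than 2 UMIs over the 5 genes together, 4 in library 1 and 20 in library 2, and 17 of the latter had under 1% haemoglobin.

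RNA of other lineages was also present. Marker lists of 7 other lineages, summed, gave at least 10 UMIs and over 1% of all UMIs in 12 members of library 1 and 43 of library 2. By single list, neutrophil markers did so in 24 members, stroma and bone markers in 18, B-lineage markers in 2 and basophil markers in 1, while endothelial, T and NK and osteoclast markers did so in 0. Of these 55 members, 17 were among the 5% of cells with the highest doublet scores, 3 in library 1 and 14 in library 2. The 104 members with at least 2 erythroid UMIs and without this excess, 29 and 75, are called erythroid-only below. That set was defined after the data were seen, and results are given with and without the other members. The part that doublets and free RNA have in this was not tested.

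**Figure D1:**
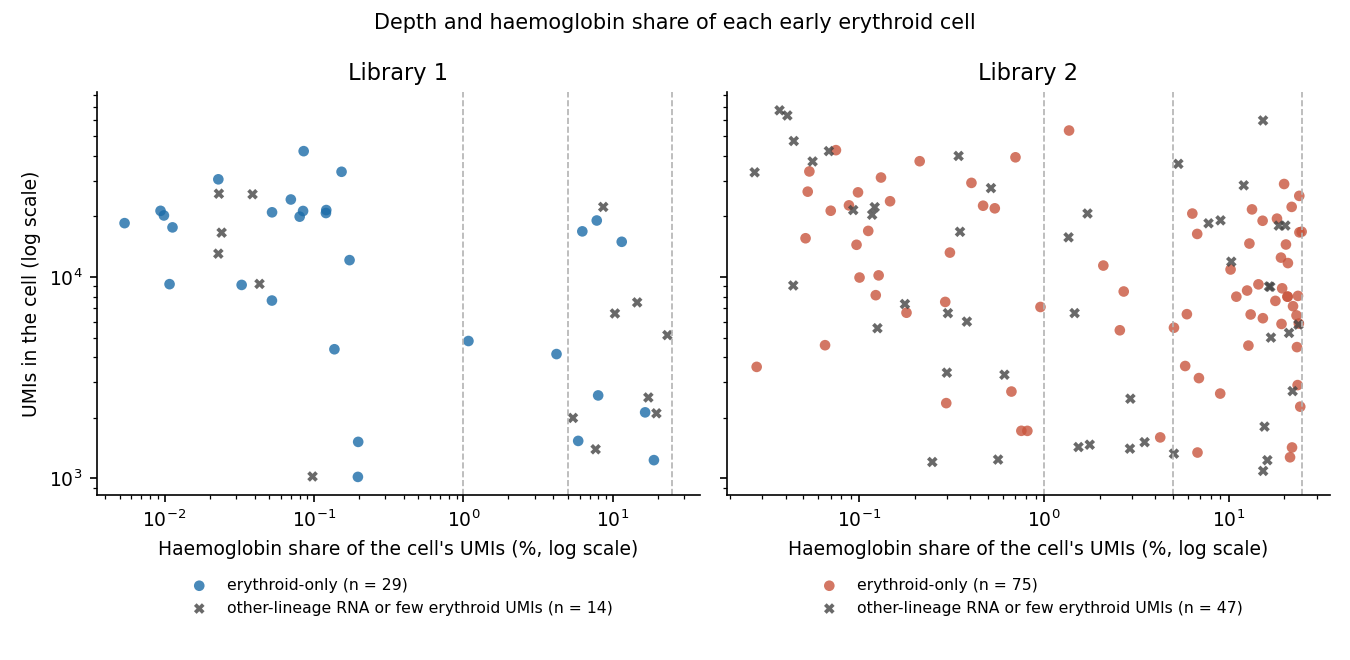
Each point is 1 member, with its haemoglobin share of UMIs (percent, log axis) against its UMIs (log axis), for library 1 (left) and library 2 (right). Circles are the 29 and 75 erythroid-only members and crosses the other 14 and 47; dashed lines at 1, 5 and 25% bound the bins, and the members under 1% are the deepest group, with medians of 19248 and 16874.5 UMIs.

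Cells just inside and just outside the limits of the rule are given here as description. In library 2, 21 members had 20 to 25% haemoglobin, all with at least 2 UMIs over the 5 erythroid genes, and 31 cells just outside had 25 to 30%, of which 29 had them. With Klf1 at 1 UMI, 28 of 46 members of library 2 had 2 or more of these UMIs, and among the 628 cells that met the rule apart from having no Klf1 UMI, 73 did. In library 1 the same counts were 14 of 17 inside and 26 of 436 outside. With Car2 at 2 UMIs, 3 of 10 members of library 2 had them, against 2 of 12 cells with Car2 at 1 UMI. The platelet limit left out 1 and 6 cells, and the C1q limit 0 and 4.

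The members were compared with all other cells of the bone. Levels are CPM, a gene's UMIs per 1000000 UMIs summed over the cells of a set, with the 4 haemoglobin genes left out of the total, so deeper cells weigh more. A gene was called higher or lower if it differed at least 2-fold the same way in both libraries, with at least 20 UMIs over the members of each. Of 4769 such genes, 1038 were higher (21.8%) and 309 lower (6.48%). The UMI limit applies to the members and not to the other cells, so genes scarce in members were not measured and could not be called lower. The filter therefore favours higher calls, and the 2 counts cannot be weighed against each other. The other cells include late erythroid cells. In the erythroid-only members 1172 of 3724 were higher (31.5%) and 205 lower (5.5%), and 912 of the higher genes were shared with the first count.

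Among 23 measured erythroid transcription factors 7 were higher than in other cells, Gata1, Tal1, Lmo2, Ldb1, Zfpm1, Gfi1b and Sox6, and 1 was lower, Spi1, a factor of myeloid cells. The list's median log2 ratio was 0.62 in library 1 and 0.55 in library 2, against 0.67 and 0.47 over all measured genes. Gata1 was at 122.5 CPM in members and 8.75 in other cells of library 1, a ratio of 14.0 (10.7 to 18.1), and at 117 and 11.9 CPM in library 2, a ratio of 9.88 (8.43 to 11.5). Gfi1b, a repressor that works with GATA1, had ratios of 19.6 and 12.3. Epor, the erythropoietin receptor, was at 82.9 against 4.64 CPM and at 74.97 against 6.55 CPM, ratios of 17.9 and 11.4. Of the other measured genes of erythropoietin signalling and survival, Tfr2 was higher and Pim1 and Mcl1 were lower, while Jak2, Stat5a and Stat5b passed neither limit.

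Car1 had the widest gap among the genes on the lists: 2575 CPM in members against 6.58 in other cells of library 1, and 1291 against 13.7 in library 2, ratios of 391 (348 to 442) and 94.1 (87.5 to 101). It was among the genes used to choose the erythroid-only members, so its level there is no support. Of 24 measured genes of the red-cell membrane and its skeleton 19 were higher and 0 lower, with median log2 ratios of 3.83 and 2.71. Ank1, which encodes ankyrin and anchors the skeleton to the membrane, had ratios of 36.3 and 11.3. Of 20 measured genes of haem synthesis and breakdown 15 were higher, with medians of 2.53 and 2.41. The 1 lower gene was Hmox1, haem oxygenase 1, which breaks haem down: 36.0 CPM against 436 in library 1 and 77.3 against 487 in library 2.

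Outside the lists, the 15 genes with the highest ratios to other cells, ranked by the lower of the 2 libraries, were Pklr, Aldh1a7, Atp7b, Sh2d4a, Hpn, Asb17os, Prss50, Zg16, Slc38a5, C1qtnf12, Stard10, Slc25a21, Bex4, Aldh1a1 and Zfp956. Pklr, the pyruvate kinase of red cells and liver, was at 48.7 CPM against 0.153 in library 1 and at 44.0 against 0.228 in library 2. Its ratios were 317 (140 to 808) and 193 (114 to 344), and it had a UMI in 13 of 43 and 34 of 122 members. In late erythroid cells, defined by at least 25% haemoglobin, Pklr had 0 UMIs in library 1, which allows up to 23.8 CPM, and was at 1.79 CPM in library 2. Slc38a5, an amino acid transporter, had ratios of 89.2 and 17.9, and Aldh1a1, a retinaldehyde dehydrogenase, 57.5 and 13.9. Immediate early genes stood on the other side: 9 of 12 were lower in members and 0 higher. Jun was at 524 CPM against 1649 in library 1 and at 446 against 965 in library 2.

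The other lists gave counts against the same background. Higher than in other cells were 17 of 21 measured S-phase genes, 19 of 20 of G2 and mitosis, 7 of 20 of iron handling, 5 of 13 of ribosome and nucleolus, 4 of 15 of redox defence and 16 of 20 early erythroid genes of single-cell surveys, with 1 lower among the last, Apoe. Cell-cycle control genes had 5 higher and 1 lower of 13, surface stage markers 4 and 2 of 10, genes of organelle clearance and enucleation 4 and 2 of 12, and stress genes 2 and 1 of 14. Of the carbonic anhydrases only Car1 was measured beside the rule gene, and of the globins and their chaperone only Ahsp. Among marker lists 7 of 8 erythroid genes were higher, while 7 of 11 neutrophil, 7 of 8 stroma and both measured macrophage genes were lower. Of the basophil and mast list Cpa3, a mast-cell protease, was higher and Hdc, histidine decarboxylase, lower, but 1 member gave 50% of the Cpa3 UMIs in library 1 and 1 gave 96.7% in library 2. No gene of that list was higher in the erythroid-only members, where only 1 was measured. The list helped to choose those members, so this is no support. Of the T and NK list only Nkg7 was measured, with no call, and of the B-lineage, megakaryocyte and endothelial lists no gene was.

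The members were then ordered by haemoglobin share into bins under 1%, 1 to 5% and 5 to 25%, with 26, 2 and 15 cells in library 1 and 50, 13 and 59 in library 2. The share is a measured value and not a time. In the lowest bin the median haemoglobin share was 0.0524% and 0.129%, beside 0.0151% and 0.176% in B-lineage cells, so in library 2 the lowest bin was no higher than cells that should make none. Embryonic globins were at or near 0 in the members, as the counts below show. The middle bin of library 1 holds 2 cells and is left out of what follows, apart from the beta-globin shares and the first count between libraries. Of 4727 genes with at least 20 UMIs over the outer bins, 335 (7.09%) were at least 2-fold higher at 5 to 25% than under 1% in both libraries, and 324 (6.85%) were lower. With haemoglobin kept in the total these counts were 230 and 546, so the share of calls that were higher moved from 50.8% to 29.6%, and the median log2 ratio of all genes moved by -0.16 in library 1 and -0.24 in library 2. In the erythroid-only members 285 of 3669 genes were higher (7.77%) and 198 lower (5.4%), of which 219 and 137 were shared with the first counts.

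Depth and other-lineage RNA moved with the bins. The median was 19248 UMIs under 1% and 2583 at 5 to 25% haemoglobin in library 1, and 16874.5 and 7999 in library 2. Restricting to cells with at least 2000 UMIs gave 325 higher and 298 lower genes, and leaving out the deepest member of each bin gave 338 and 318. The 12 neutrophil markers summed to 6140.4 CPM in the lowest and 40691 in the highest bin of library 1, but to 17591 and 11457 in library 2. The 9 stroma and bone markers summed to 2119 and 6904 CPM in library 1 and to 7598 and 21660.0 in library 2. In the erythroid-only members, which were chosen for low levels of these markers, the sums lay closer together between the bins: 3353 and 3059 CPM for neutrophil and 2178 and 2477 for stroma in library 1, and 1819.5 and 2386 for neutrophil and 1066 and 1161 for stroma in library 2. Each gene named below as higher or lower kept its call in the erythroid-only members unless stated otherwise. In library 1 the upper bin of that set holds 7 cells and 58428 UMIs, of which single cells gave 19104, 16872 and 14974. Calls in that set need both libraries and so rest largely on those few cells.

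**Figure D2:**
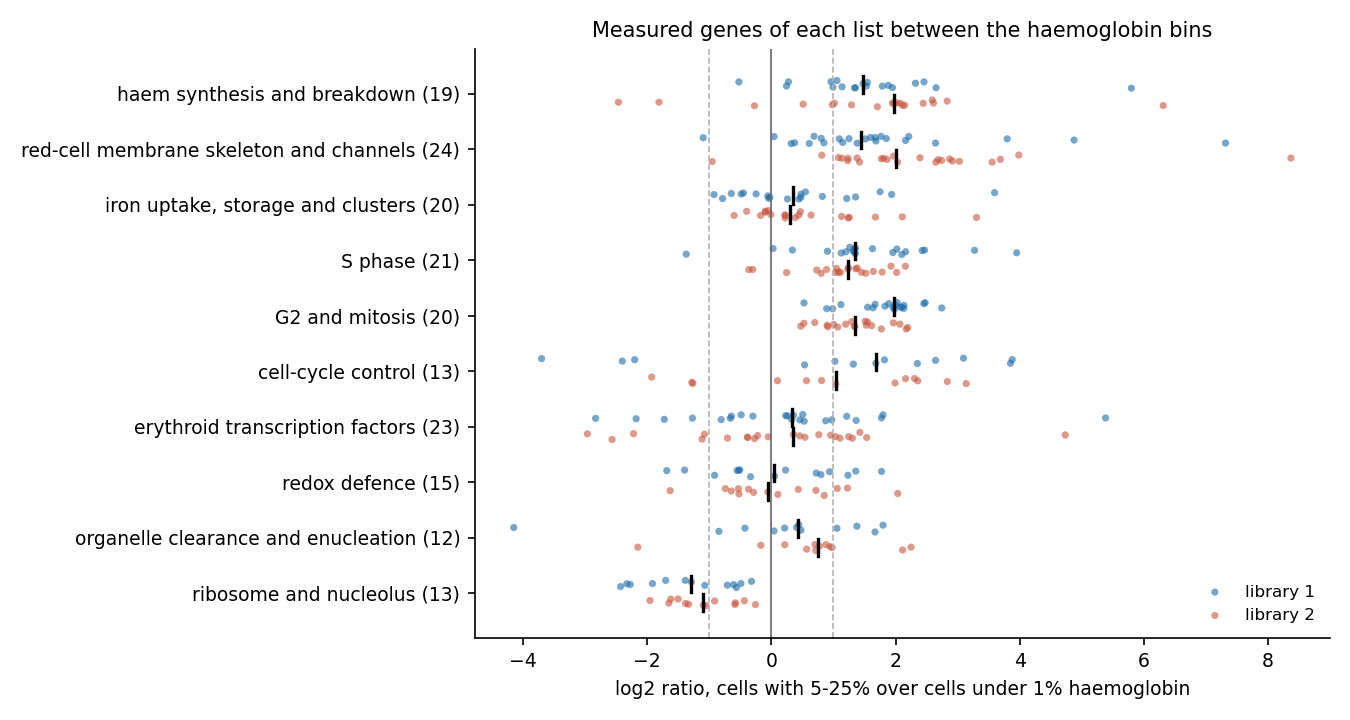
Each point is 1 measured gene of a functional list, with its log2 ratio of the 5 to 25% bin over the bin under 1% in library 1 (blue) or library 2 (red); black bars are list medians, dashed lines mark 2-fold, and the number of measured genes is in parentheses. Haem synthesis has medians of 1.48 and 1.97 and the ribosome and nucleolus list -1.29 and -1.10, against -0.19 and -0.13 over all genes.

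Haem synthesis was higher along nearly its whole length. Of 19 measured genes 13 were higher at 5 to 25% haemoglobin and 0 lower, and in the erythroid-only members it was 13 of 15. Alas2, the erythroid form of the first and rate-limiting enzyme, was at 2.23 CPM, 1 UMI in all, under 1% and at 372 CPM at 5 to 25% in library 1, a ratio of 167 with a counting interval of 28.1 to 6774. In library 2 it was at 9.11, 84.9 and 724 CPM in the 3 bins in turn, a ratio of 79.4 (41.4 to 175). Cells with an Alas2 UMI numbered 1 of 26 and 9 of 15 in library 1, and 7 of 50 and 50 of 59 in library 2, so most cells of the upper bin carried it and most cells of the lower bin did not. Later enzymes differed less: Uros, Urod, Cpox and Fech, which close, trim, oxidise and fill the ring with iron, had ratios between 2.53 and 7.12. Cpox was already at 452 and 297 CPM in the lowest bin, where Alas2 was close to absent.

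**Figure D3:**
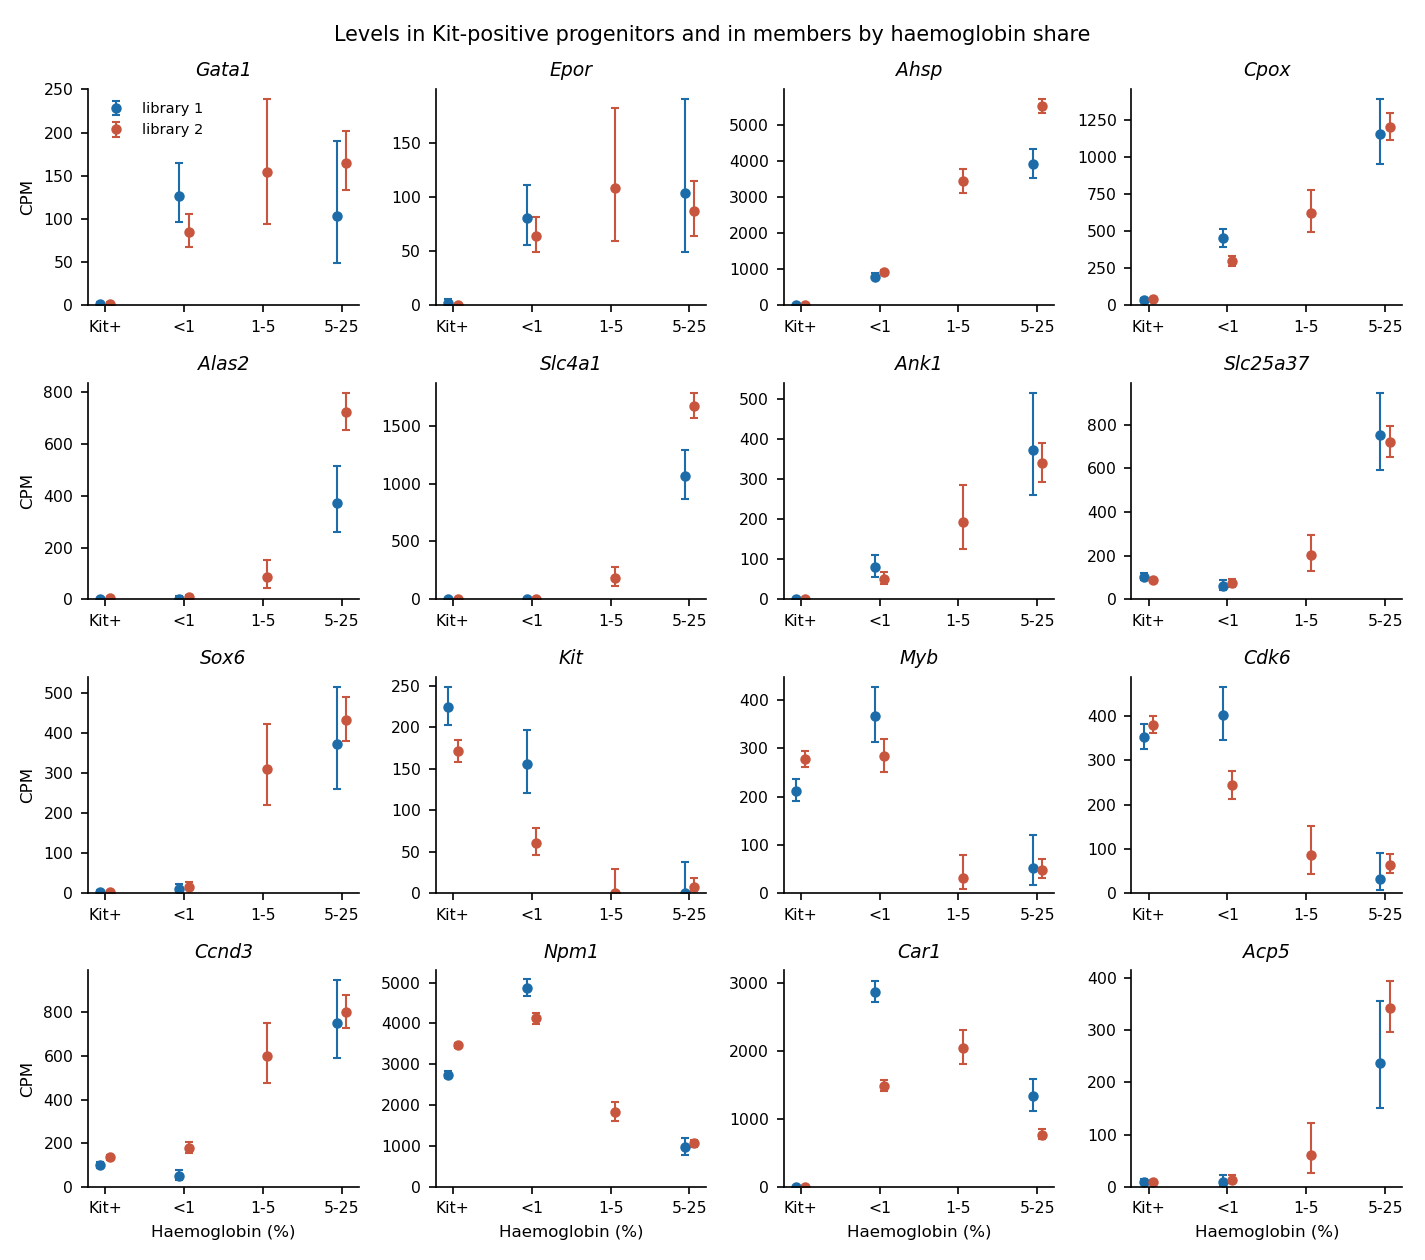
Each panel shows 1 gene in CPM of non-haemoglobin UMIs (linear axis from 0, a scale of its own in each panel) in Kit-positive progenitors and in the haemoglobin bins of the members, for library 1 (blue, without its 2-cell middle bin) and library 2 (red); bars are 95% Poisson intervals. Alas2 and Slc4a1 are near 0 under 1% haemoglobin, while Gata1 and Epor differ less than 2-fold between the outer bins in both libraries.

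The ubiquitous first enzyme, Alas1, moved apart from the erythroid one. Of the UMIs of both genes Alas1 held 29 of 30 in the lowest bin of library 1 and 13 of 49 in the highest, shares of 96.7% (82.8 to 99.9%) and 26.5% (14.9 to 41.1%). In library 2 it held 166 of 175 in the lowest bin, 6 of 17 in the middle and 27 of 435 in the highest, shares of 94.9%, 35.3% and 6.21%. In late erythroid cells the share was 0.763% and 0.664%. The 13 Alas1 UMIs of the highest bin of library 1 came from 1 cell, and in the erythroid-only members the shares were 13 of 13 and 0 of 20 UMIs in library 1 and 11 of 18 and 2 of 269 in library 2. The low barcodes, which hold free RNA, had Alas1 shares of 90.7% and 59.0%.

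The membrane skeleton differed as strongly. Of 24 measured genes 16 were higher and 0 lower, and in the erythroid-only members 13 of 23. Slc4a1, band 3, the anion exchanger of the red-cell membrane, had 0 UMIs in 26 cells under 1% haemoglobin of library 1 and 1063 CPM at 5 to 25%, where 13 of 15 cells carried it. That is at least 159-fold higher, against a floor of 3 counts over the bin. In library 2 it was at 5.06, 185 and 1673 CPM, a ratio of 330 (141 to 1020), and in 2 of 50 and 57 of 59 cells. Sptb and Ank1, a subunit of the skeleton and its anchor, had ratios of 6.25 and 4.64 in library 1 and 8.16 and 6.69 in library 2. Ermap and Rhag passed the limit in library 2 only, with ratios of 2.34 and 3.91 there and 1.75 and 1.53 in library 1, and whether the libraries differ in this was not tested. Car1 lay the other way: 2873 and 1342 CPM in library 1 and 1490.0, 2046 and 770 CPM in library 2, ratios of the lowest to the highest bin of 2.14 and 1.93, and 1.43 and 2.47 in the erythroid-only members, so it was not called in either set.

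Iron genes differed in part. Of 20 measured 4 were higher, Tfrc, Slc25a37, Glrx5 and Isca1, and 0 lower. Tfrc, the transferrin receptor that brings iron in, was at 341 and 1145 CPM in library 1 and at 224, 440.2 and 965 CPM in library 2, ratios of 3.36 (2.61 to 4.32) and 4.31 (3.68 to 5.06). Slc25a37, mitoferrin 1, which carries iron into mitochondria, had ratios of 12.1 (7.72 to 19.4) and 9.88 (7.67 to 12.9). The 16 others, with the ferritin chain Ftl1 among them, passed neither limit, and Fth1, the other ferritin chain, was called higher in the erythroid-only members only.

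Ahsp, the chaperone of free alpha-globin, was present at all bins: 799 and 3901 CPM in library 1 and 917, 3429 and 5502 CPM in library 2. Its ratios were 4.88 (4.21 to 5.66) and 6.00 (5.57 to 6.47). The haemoglobin genes themselves set the bins, but the split between the paralogs Hbb-bt and Hbb-bs did not. Hbb-bt held 28.0%, 47.2% and 39.8% of adult beta-globin UMIs in the 3 bins of library 1 and 37.0%, 45.6% and 29.5% in library 2, beside 18.7% and 20.3% in late erythroid cells. Every bin was above the low barcodes, which had 19.1% and 19.9%, and above the B-lineage cells, which had 21.2% and 16.8%, except that the interval of the lowest bin of library 1 (20.3 to 36.7%) reached into the B-lineage range. In the erythroid-only members Hbb-bt held 30.9% in the lowest and 51.6% in the highest bin of library 1, and 35.6% and 31.5% in library 2. The paralogs are nearly alike in sequence, and how reads they share were assigned is not given in the sources used here. Hbb-y, an embryonic globin, had 0 and 5 UMIs in all members, and Hbb-bh1, Hbb-bh2 and Hba-x had 0.

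**Figure D4:**
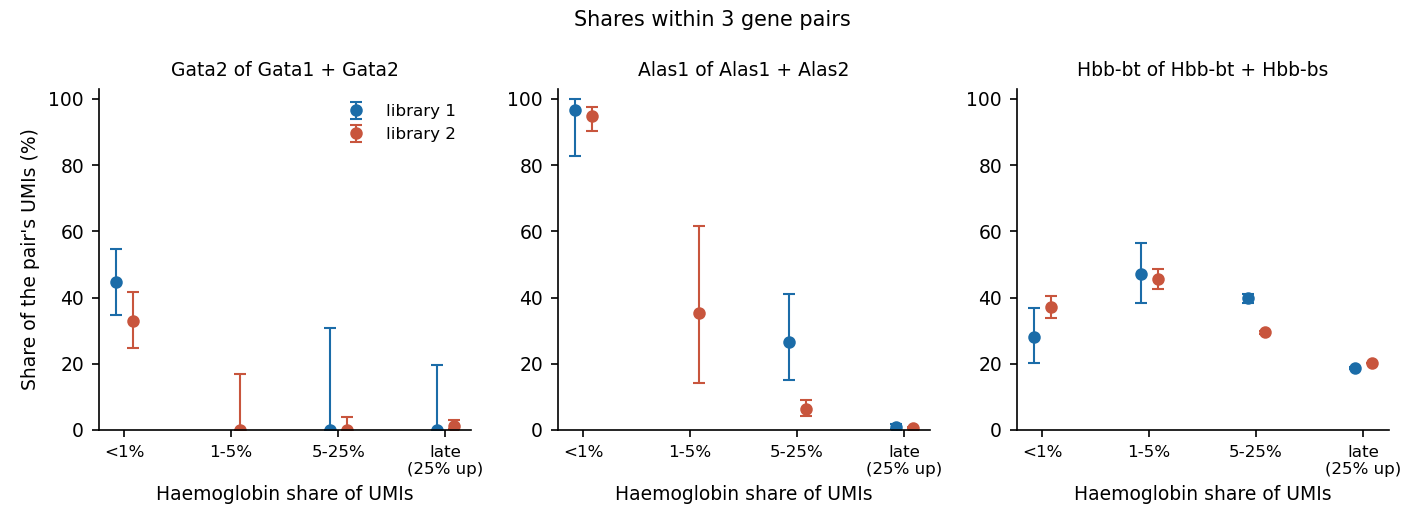
Shares of Gata2 in Gata1 plus Gata2 UMIs, of Alas1 in Alas1 plus Alas2 UMIs and of Hbb-bt in adult beta-globin UMIs (percent of the pair's UMIs, axis from 0 to 100) by haemoglobin bin and in late erythroid cells, with 95% Clopper-Pearson intervals, for library 1 (blue) and library 2 (red); points with under 10 UMIs are not drawn. Gata2 holds 44.7% and 32.8% under 1% haemoglobin, and 0 of 10 and 0 of 93 UMIs above 5%, where the interval reaches 30.9% in library 1. Alas1 holds 96.7% and 94.9% under 1%, and 26.5% and 6.21% above 5%. Hbb-bt holds 18.7% and 20.3% in the late cells, and its 1 to 5% point of library 1 rests on 2 cells.

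The progenitor regulators were found mainly in the lowest bin. Gata2, the factor that precedes Gata1, had 46 UMIs in 14 of 26 cells under 1% haemoglobin and 0 in 15 cells above 5% in library 1, and 41 UMIs in 13 of 50 cells and 0 in 59 cells in library 2. Its share of Gata1 plus Gata2 UMIs was 44.7% (34.9 to 54.8%) and 32.8% (24.7 to 41.8%) in the lowest bins, and 0 of 10 UMIs (up to 30.9%) and 0 of 93 (up to 3.89%) in the highest. In the erythroid-only members Gata2 was measured but not called, with a log2 ratio of -0.25 in library 1 and -2.67 in library 2. For these ratios its 0 UMIs in the highest bin were set to the floor of 3 counts. In those members its share of the pair was 32.0% and 29.2% in the lowest bin and 0 of 5 and 0 of 79 UMIs in the highest. Both genes helped to choose those members, Gata1 as an erythroid gene and Gata2 as a basophil marker, so these shares are no independent support. Kit was at 156 CPM in the lowest bin and 0 in the highest bin of library 1, at least 5.03-fold lower, and at 60.8, 0 and 7.1 CPM in library 2, a ratio of the lowest to the highest of 8.56 (3.18 to 32.4). The 4 Kit UMIs of the highest bin came from 1 cell.

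Myb, a factor of dividing progenitors, was at 367 and 51.6 CPM in library 1 and at 284, 30.9 and 47.9 CPM in library 2. It was present in 23 of 26 and 3 of 15 cells of library 1, and in 35 of 50 and 7 of 59 of library 2. Cdk6, a cyclin-dependent kinase of early progenitors, was at 403 and 31.0 CPM in library 1 and at 243, 84.9 and 63.9 CPM in library 2. Sox6, a repressor of embryonic globin genes, went the other way, with 8.90 and 372 CPM in library 1 and 16.2, 309 and 431 CPM in library 2, ratios of 41.7 (14.96 to 161) and 26.6 (16.0 to 47.3). Over the 23 measured transcription factors 4 were higher, Nfe2, Sox6, Foxo3 and Mafk, and 3 lower, Gata2, Myb and Bcl11a. In the erythroid-only members Gata2, Mafk and Bcl11a were not called and Myc was called lower. Gata1 passed neither limit, with 127 and 103.2 CPM in library 1 and 85.1 and 165 CPM in library 2, so the 2 libraries did not share a direction.

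Cell-cycle RNA was higher in the upper bin. Of 21 measured S-phase genes 15 were higher and 0 lower, and 17 of 21 in the erythroid-only members, but with haemoglobin kept in the total 9 of 21. Of 20 genes of G2 and mitosis 13 were higher and 0 lower, 17 in the erythroid-only members and 10 with haemoglobin in the total. The S-phase list summed to 3710.0 CPM under 1% and 10196 at 5 to 25% haemoglobin in library 1, and to 3887 and 8647 in library 2. Mcm2, a subunit of the replicative helicase, had ratios of 2.52 (1.82 to 3.47) and 2.36 (1.99 to 2.81), and Rrm2, the regulatory subunit of ribonucleotide reductase, 9.67 and 4.46. Mki67, a marker of cycling cells, was at 657 and 4396 CPM in library 1 and at 949, 2093 and 3982 CPM in library 2. These differences are larger than counting error in both libraries.

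Counted as cells, the same order was seen. With each cell thinned to 1000 UMIs, at least 3 S-phase UMIs were found in 19 of 26 cells under 1% and 14 of 15 cells above 5% haemoglobin in library 1, and in 31 of 50 and 53 of 59 in library 2. For G2 and mitosis it was 19 of 26 and 15 of 15, and 38 of 50 and 57 of 59. Unthinned, the S-phase shares were 100% and 100% in library 1 and 96.0% and 98.3% in library 2, so they show no order. Thinned instead to 750 UMIs without haemoglobin, which was added after the data were seen and lets late erythroid cells be set beside them, the S-phase cells were 10 of 26 and 15 of 15 in library 1 and 24 of 50 and 47 of 59 in library 2. In the erythroid-only members it was 12 of 20 and 7 of 7 in library 1 and 17 of 29 and 38 of 41 in library 2. Those 20 cells are among the 26 but were thinned in a separate random draw. The counts therefore also vary with the draw, which the intervals do not cover. Only cells with at least 750 UMIs other than haemoglobin could be thinned this way, which left 69 of 121 and 533 of 925 late erythroid cells. On that scale these late cells had 35 of 69 and 236 of 533, and Kit-positive progenitors 16 of 90 and 59 of 168. The late cells left out are not described by these counts. No phase is assigned to single cells from these counts.

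**Figure D5:**
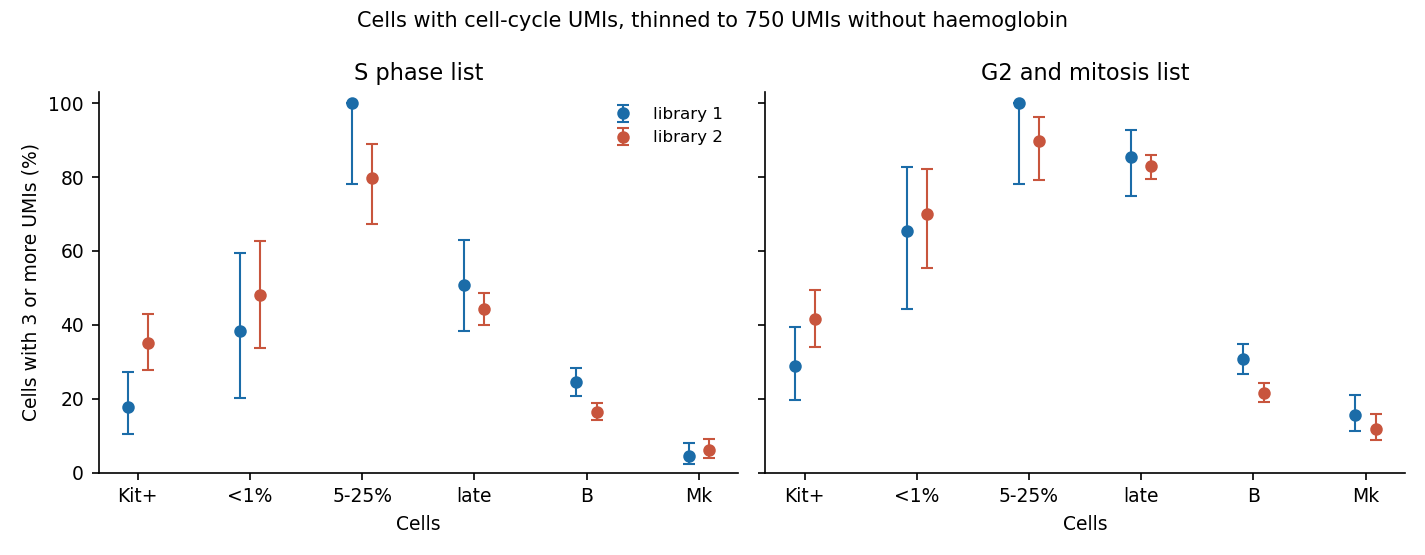
Percent of cells (axis from 0 to 100) with at least 3 UMIs of the S-phase list (left) or the list of G2 and mitosis (right), each cell thinned to 750 UMIs without haemoglobin, in Kit-positive progenitors (Kit+), members under 1% and at 5 to 25% haemoglobin, late erythroid cells, B-lineage cells (B) and megakaryocytes (Mk), for library 1 (blue) and library 2 (red) with 95% Clopper-Pearson intervals. Cells with fewer than 750 such UMIs are left out, so the late erythroid cells are 69 of 121 and 533 of 925. The S-phase share is 38.5% and 48.0% under 1% and 100% and 79.7% at 5 to 25% haemoglobin, and 50.7% and 44.3% in these late erythroid cells. In a separate draw for the erythroid-only members, not drawn here, the shares under 1% are 60.0% and 58.6%.

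Of 13 cell-cycle control genes 7 were higher and 3 lower. The early G1 kinases Cdk4 and Cdk6 and cyclin D2 (Ccnd2) were lower at 5 to 25% haemoglobin, while cyclin D3 (Ccnd3), Rb1, E2f1, E2f2, E2f8, Cdkn1b and Cdkn2c were higher. Ccnd3, the D cyclin that is known to set the number of divisions of red-cell precursors, was at 51.2 and 753 CPM in library 1 and at 179, 602 and 802 CPM in library 2, ratios of 14.7 (9.10 to 24.6) and 4.47 (3.75 to 5.35). E2f2 had ratios of 14.4 and 8.80, and Rb1, its binding partner in the exit from the cycle, 6.25 and 7.13. Cdk4 was at 327 and 61.9 CPM and at 303, 355 and 126 CPM, ratios of the lowest to the highest bin of 5.28 and 2.40. Of the 9 genes of this list measured in the erythroid-only members, Ccnd3, Rb1, E2f2 and E2f8 were higher and Cdk4 and Cdk6 lower. Cdkn1b, Cdkn2c, E2f1 and Ccnd2 were not called there.

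Ribosome-making genes were lower in the upper bin. Of 13 measured genes of the ribosome and nucleolus 8 were lower and 0 higher, and 7 in the erythroid-only members, with a median log2 ratio of -1.29 in library 1 and -1.10 in library 2. Npm1, a nucleolar chaperone, was at 4876 and 970.1 CPM in library 1 and at 4122, 1838 and 1062 CPM in library 2. Fbl, which methylates ribosomal RNA, was at 445 and 82.6 CPM in library 1 and at 351, 193 and 112 CPM in library 2. Ncl, nucleolin, was lower by ratios of 2.62 and 2.52. The 4 ribosomal protein genes on the list, Rps19, Rps14, Rpl11 and Rpl5, and Eif4a1 passed neither limit.

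Among the 15 genes with the widest differences downward, ranked by the smaller change of the 2 libraries, were Ctla2a, Mthfd1, Myb, Dnajc2, Rangrf, Npm3, Kit, Tomm5, Srm, Suclg2, Mif, Mybbp1a, C1qbp and Slc25a4, of which Ctla2a was not called in the erythroid-only members. Mthfd1, a folate enzyme of purine synthesis, was at 289 and 10.3 CPM in library 1, the latter from 1 UMI, and at 199, 154 and 31.9 CPM in library 2, ratios of 28.0 (4.94 to 1116) and 6.22 (3.83 to 10.7). Mif, a cytokine, had ratios of 8.11 and 4.38.

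Redox and stress genes changed little as lists. Of 15 measured redox genes 2 were higher, Prdx2 and Gpx1, and 0 lower, and Prdx6 was also lower in the erythroid-only members. Prdx2, the peroxiredoxin that is abundant in red cells, was at 661 and 2260.0 CPM in library 1 and at 672, 1776 and 2753 CPM in library 2. Of 14 stress genes Eif2ak1, the haem-regulated kinase of translation, and Ppp1r15a, which reverses its phosphorylation, were higher, and Hspa9 was lower. Eif2ak1 had ratios of 3.66 (1.73 to 7.60) and 3.77 (2.74 to 5.25), and Ppp1r15a 5.87 and 6.02. Mgst3, a glutathione transferase of membranes, had ratios of 14.7 and 11.6.

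The remaining lists were then set between the bins. Of 10 surface stage markers 4 were higher and 1 lower, and in the erythroid-only members 3 and 1 of 9. Cd24a, a surface marker of erythroid precursors, was at 665 and 2890.0 CPM in library 1 and at 699.8, 1637 and 3053 CPM in library 2, and Cd44, which is known to fall with erythroid maturation, passed neither limit. Of 12 genes of organelle clearance and enucleation 2 were higher, Ube2l6 and Diaph3, and 1 lower. Of the 3 measured early progenitor genes, Cdk6, Adgrg1 and Sox4, all were lower, and in the erythroid-only members only Cdk6 was. Of the 20 survey genes 9 were higher and 1 lower, Atp1b2, and in the erythroid-only members 9 and 4. Of 11 genes of erythropoietin signalling only Kit was called.

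Among the 15 genes with the widest differences upward were Slc4a1, Alas2, Tmcc2, Sox6, Acp5, Dmtn, Ift140, Mgst3, Slc25a37, Thbs4, E2f2, Btnl10 and Ibsp, and some of them rested on few cells. Dmtn, Ift140 and Btnl10 were not called in the erythroid-only members. Acp5, tartrate-resistant acid phosphatase, is on the osteoclast list and was at 8.90 and 237 CPM in library 1 and at 13.2, 61.8 and 342 CPM in library 2, a ratio of 26.7 (9.11 to 106) in the former. It came from many cells, 4 of 26 and 10 of 15 in library 1 and 11 of 50 and 43 of 59 in library 2, and the other 7 osteoclast markers did not reach 20 UMIs over the members of each library. In the erythroid-only members its ratios were 26.9 and 32.6, with too few UMIs in library 1 for a call. Tmcc2 had ratios of 48.7 (11.9 to 428) and 42.2 (22.6 to 89.1), and was likewise under the limit of 20 UMIs there. Ibsp, a bone matrix gene, had ratios of 7.90 and 21.1, but 1 cell gave 91.3% and 76.0% of its UMIs in the highest bin, and in the erythroid-only members it lay the other way, lower by ratios of 2.18 and 2.24. It is among the stroma and bone markers used to leave members out. Thbs4, a tendon matrix gene, and Fos rested on 1 cell for 87.5% and 73.8% of the UMIs of the highest bin of library 1, and neither was called in the erythroid-only members. Of the immediate early genes Dusp1 and Btg2 were called higher in the erythroid-only members too.

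The members were then set beside the progenitors and the late erythroid cells. Kit-positive progenitors, 90 and 168 cells chosen by at least 2 UMIs of Kit, at least 1 of Cd34 and 0 of Klf1, had Gata1 at 1.20 and 2.00 CPM, against 127 and 85.1 CPM in members under 1% haemoglobin. The absence of Klf1 was part of that choice. Npm1 was at 2744 and 3463 CPM in those progenitors, below the lowest bin of the members. In the 121 and 925 late erythroid cells the enzyme and the anion exchanger were higher again relative to UMIs other than haemoglobin. Alas2 was 11.3-fold (8.08 to 16.3) and 7.52-fold (6.81 to 8.32) higher in them than in the highest bin of the members. Slc4a1 was 3.37-fold and 2.26-fold higher. Haemoglobin, left out of these totals, held 63.9% and 68.0% of late-cell UMIs, against 10.3% and 15.7% in the highest bin. With haemoglobin kept and cells thinned to equal depth, Slc4a1 was found in fewer late cells, 47.9% and 54.3% against 80.0% and 69.5%. Alas2 was still found in more of them, 69.4% and 75.5% against 26.7% and 42.4%.

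The upper bin was also set beside the late cells for the cell cycle, where no genes were called. Mcm2 was 2.30-fold (1.54 to 3.48) and 1.74-fold (1.51 to 2.00) higher there than in late erythroid cells, and the S-phase list summed to 10196 CPM against 6171.5 in library 1 and 8647 against 6042 in library 2. With haemoglobin left out, the list of G2 and mitosis summed higher in the late cells than in the upper bin. It went from 16739 to 21687 CPM in library 1 and from 14802 to 20852 in library 2. Counted as cells thinned without haemoglobin, it was not more frequent in late cells. At least 3 UMIs were in 59 of the 69 and 442 of the 533 late cells deep enough for this, against 15 of 15 and 53 of 59, with overlapping intervals. Thinned with haemoglobin kept, late cells had 56 of 121 and 415 of 925, against 15 of 15 and 57 of 59. Car1 was 3.05-fold and 2.38-fold lower in the late cells.

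The libraries were set beside each other within bins, since their mix of stages differs. This describes 2 pools and not force. By the rule of 1.5-fold in all 3 bins, 328 of 4769 genes (6.88%) were higher in library 1 and 5 (0.105%) in library 2, but the 2 cells of the middle bin of library 1, with 8732 UMIs, shaped that count. Over the outer bins alone and with at least 10 UMIs in each, a choice made after the data were seen, 60 of 1873 genes (3.2%) were higher in library 1 and 29 (1.55%) in library 2. Col3a1, Sparc, Mpo and Elane, genes of stroma and of neutrophil precursors, were among those higher in library 2. In the erythroid-only members the counts were 32 (3.19%) and 12 (1.2%) of 1003. Col1a1 then lay the other way: over all members it was at 534 and 1280.0 CPM in the outer bins of library 1 and at 1851 and 4630.0 in library 2, and in the erythroid-only members at 523 and 676 against 210.1 and 238. Col1a1 is among the stroma and bone markers used to leave members out. Of the 18 members with an excess of that list 17 were in library 2, so the choice itself lowers Col1a1 mainly there. Among erythroid genes Ccnd3 was higher in library 2 in these cells, with 41.9 and 713 CPM in library 1 and 139 and 1123 in library 2, as was the mitochondrial gene mt-Cytb, which was named after its values were seen, with 1529.5 and 713 CPM against 3461 and 1744. No cause of a difference between the libraries was tested.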

How the data were processed

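The authors deposited 2 matrices of UMI counts per feature and barcode, 1 per library. FastQC 0.11.9 and the builds GRCh38 and mm10 are named, without a role, per the submitters' processing notes; which aligner, counter and annotation were used is not given in the sources used here. Each matrix has 99819 features, of which 57126 with mouse Ensembl identifiers were used.

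Cells had at least 1000 UMIs and at most 20% mitochondrial. Counts were summed over the cells of a set in each library and scaled to CPM without haemoglobin. Neither library has a group in the labels, so no comparison of conditions was made and there is no test, and a call is at least 2-fold in both libraries (1.5-fold between libraries) with at least 20 UMIs. Intervals are exact 95% Poisson, Clopper-Pearson or conditional. For calls, list medians and ranks, sums under 3 counts were set to a floor of 3. Printed folds use the floor against 0 UMIs only and the counts themselves otherwise, so folds against 1 or 2 UMIs are larger than those ranked. Python 3.11.15, numpy 2.4.6, scipy 1.17.1, pandas 2.3.3 and scanpy 1.11.5 were used, and the calling code was tested on simulated data. Scrublet's automatic threshold marked 0 and 2 cells, so it had not worked; removing the 5% with the highest scores was an alternative. Alternatives also changed the depth, mitochondrial, UMI and bin limits and the total.

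Genes named were those of 18 functional and 10 marker lists, the 15 outside them with the highest ratio to other cells, the 15 with the widest difference each way between bins, and the 8 most unequal between libraries each way, ranked by the smaller change. Some genes that these rules name are not reported here. The members and lists were chosen with earlier results of these data known.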

Additional observations from a re-analysis of the deposited data

Results flagged for a closer look

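Features that are not mouse genes by their identifier held 0.602% of UMIs in library 1 and 0.431% in library 2. They enter no value above, and the signal drew attention because no comparison uses it.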

How the results depend on the processing

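No paired analysis was possible because the labels place neither library in a group. Settings named as erythroid-only, without the deepest members, thinned without haemoglobin and outer bins alone were chosen after seeing the data. Without members with other lineages' RNA the share of cells was 0.331% and 0.635%, and with erythroid-only members 0.310% and 0.603%. Against other cells, 205 genes were lower in erythroid-only members, 585 were lower with at least 10 UMIs, and 538 were higher and 121 lower with at least 50. Between bins, 200 were lower without other-lineage members, 198 in erythroid-only members, 546 with haemoglobin in the total and 116 with bins at 2 and 10%; with at least 50 UMIs 158 were higher and 171 lower.

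The S-phase share under 1% haemoglobin was 100% and 96.0% in libraries 1 and 2 without thinning, 92.3% and 80.0% at 2 UMIs, 30.8% and 34.0% at 5 UMIs, and 38.5% in library 1 thinned without haemoglobin. Above 5% it was 100% in library 1 with at most 10% mitochondrial, without other-lineage members, in erythroid-only members, without thinning, at 2 UMIs and thinned without haemoglobin, and 98.3% in library 2 without thinning. The share for G2 and mitosis under 1% was 100% and 96.0% without thinning, 46.2% and 54.0% at 5 UMIs, and 87.1% in library 2 without other-lineage members; above 5% it was 88.1% in library 2 at 5 UMIs.

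Between libraries, 778 genes were higher in library 1 with at least 10 UMIs, 54 with at least 50, 60 over the outer bins and 32 there in erythroid-only members. In library 2 it was 1 without high doublet scores, 1 without other-lineage members, 1 in erythroid-only members, 35 with the other bins, 29 over the outer bins and 12 there in erythroid-only members. The log2 ratio of Ibsp between bins was 2.98 and 4.4015, and became -0.37 in library 1 without high doublet scores, -0.75 and -1.01 without other-lineage members and -1.13 and -1.17 in erythroid-only members. Ibsp is among the markers that define the last 2 of these settings. The log2 ratio of Fos in library 1 was 2.26 and became -0.93 and -1.34 in the same 2 settings. Gata1 and Rhag, not called, changed sign in library 1 with other bins, from -0.30 to 0.38 and from 0.61 to -0.07. The cause was not tested, except that the outer-bin setting leaves out a bin of 2 cells.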
